A study of Astragalus chrysochlorus with 2 samples.

Results

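The calcium-transporting ATPases described here are 4 of the 82566 unigenes in the deposited comparison of 2 Astragalus chrysochlorus callus libraries. The study reported somewhat more unigenes in its whole assembly. A unigene is a transcript sequence assembled from the reads without a genome. The 4 were picked by their identifiers from unigenes whose best protein match is a calcium pump. Unigene4785_All resembles calcium-transporting ATPase 9 of Glycine max (soybean), a pump of the plasma membrane type. Unigene8246_All and CL3314.Contig1_All both matched a type IIB calcium ATPase of Medicago truncatula. CL3314.Contig6_All resembles the soybean ATPase 4 of the same type. The ending that all identifiers share is left out below. The table of matches holds only unigenes that had passed an FDR of 0.001 and a log2 ratio of 2 in size between the same 2 libraries. The difference between the libraries is therefore what chose the members, and it is given for them as a description with no test.

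Callus is an undifferentiated tissue culture, and this species is a legume that accumulates selenium. One library came from control callus on MS medium with 0.5 mg/L of the auxin 2,4-D, whose age and weeks of culture the sample labels leave unstated. The other came from Se-treated callus, which was 21 days old when it was put on medium that also held 5 mg/L sodium selenate, and was kept there for 3 weeks. There was 1 library per condition, with 16.73 M and 16.70 M mapped fragments (1 M is 1000000), so the spread between cultures is unknown and no difference below has a replicate check. The study grew its cultures in triplicate, and its methods leave unsaid whether these were pooled into the libraries. No marker list was checked for the callus, because the matches used here cover only unigenes past the thresholds.

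Type IIB calcium ATPases are P-type pumps. They use ATP to move calcium ions out of the cytosol, across the plasma membrane or into internal stores, and so bring cytosolic calcium back down after a signal. In plants they carry a regulatory end that inhibits the pump until calmodulin, a calcium sensor, binds it. In Arabidopsis, ACA9 acts at the plasma membrane of pollen and ACA4 sits in the membrane of small vacuoles, although the name of the soybean match calls both types plasma membrane-type.

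The length of a unigene sets how much of a pump it can hold. CL3314.Contig1 was 3548 nt long, room for at most 1182 codons, which is enough for a whole pump. Unigene8246 had 862 nt and Unigene4785 had 823 nt, room for at most 287 and 274 codons. CL3314.Contig6 had 311 nt, at most 103 codons. These 3 shorter ones can only be parts of a pump, and they may belong to fewer than 3 transcripts. Unigene8246 and CL3314.Contig1 carry the same matched name, and whether they come from 1 gene was not tested.

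Unigene4785, the ATPase 9-like unigene, was the most abundant member in both libraries. It had 120 control and 509 Se-treated fragments. Its level was 8.72 FPKM (fragments per kilobase of unigene for every 1000000 mapped fragments) in the control and 37.0 FPKM with selenate. The exact 95% Poisson intervals of these levels were 7.23 to 10.4 and 33.9 to 40.4 FPKM, so they lay well apart. Intervals of this kind cover counting error at most, and can be too narrow even for that, since sequenced fragments are not independent molecules. Its log2 ratio, taken as Se-treated over control FPKM, was 2.09, with an exact binomial interval of 1.80 to 2.39, or 4.25-fold. Its level moved from percentile 82.3 to percentile 95.02 of all unigenes. It was the best measured of the 4, with 629 fragments over both libraries.

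Unigene8246, one of the type IIB matches, had 19 control and 101 Se-treated fragments. Its levels were 1.32 FPKM (0.793 to 2.06) and 7.02 FPKM (5.71 to 8.52). The log2 ratio was 2.41, with an interval of 1.70 to 3.20. Its level with selenate could not be told apart from the control level of Unigene4785, since those intervals overlapped.

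CL3314.Contig1, the long contig with the type IIB match, had 15 and 107 fragments. Spread over 3548 nt, these are levels of 0.253 FPKM (0.141 to 0.417) in control callus and 1.81 FPKM (1.48 to 2.18) with selenate. It had the largest log2 ratio of the 4, 2.84 (2.05 to 3.72), and the lowest level in both libraries. In the control library its level lay at percentile 11.2 of all unigenes.

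CL3314.Contig6, the ATPase 4-like fragment, had 8 control and 36 Se-treated fragments, at levels of 1.54 FPKM (0.664 to 3.03) and 6.93 FPKM (4.85 to 9.60). Its log2 ratio was 2.17, with the widest interval of the 4, 1.04 to 3.49. For all 4 members the level intervals of the 2 libraries were apart. The intervals of the 4 ratios overlapped one another, so no order of the ratios can be read from these counts.

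FPKM is per length, so the levels of the members are set side by side here as a description. It uses the full length of each unigene, with no correction for short ones such as CL3314.Contig6. The order is one of unigenes and need not be that of whole pump transcripts. In the control library the order was Unigene4785, CL3314.Contig6, Unigene8246 and CL3314.Contig1. In the Se-treated library Unigene8246 stood just above CL3314.Contig6. That pair could not be told apart in either library, since their intervals overlapped, while all other neighbours in the order lay apart.

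**Figure D1:**
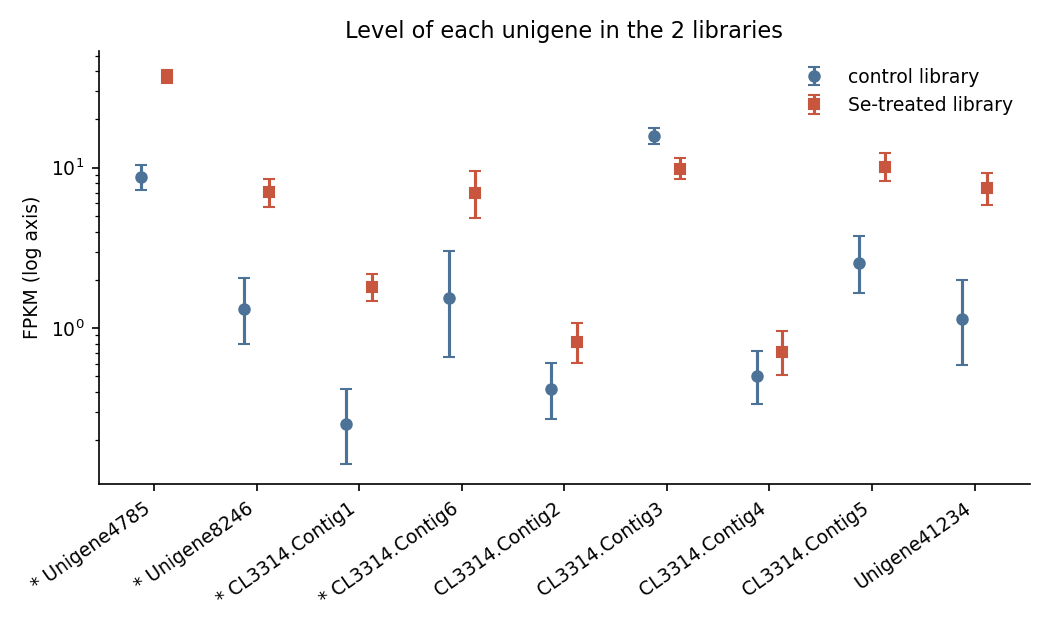
Level in FPKM (log axis) of the 4 members (marked with an asterisk), the 4 other contigs of cluster CL3314 and Unigene41234, in the control (circles) and the Se-treated library (squares), with exact 95% Poisson intervals. Unigene4785 went from 8.72 to 37.0 FPKM, while CL3314.Contig3 is the unigene shown that was lower in the Se-treated library.

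The 4 members together had 162 control and 753 Se-treated fragments, and 509 of the latter came from Unigene4785. The median log2 ratio of the members was 2.29. Over all unigenes the median was -0.09, and over the 972 unigenes with a protein match in the same table it was 2.18. Of all unigenes, 1.59% were called higher at a log2 ratio of at least 2 and an FDR of at most 0.001, and 5.5% at a log2 ratio of at least 1. On the lower side 1.1% and 4.65% were called. The FDR was computed over all unigenes from the Audic-Claverie test (two-sided), which takes the 2 counts and the 2 library totals. It compares the 2 libraries, not the conditions. The threshold of the choice fixed the size of the members' ratios, not their direction. The members were picked with earlier results of these data known, so that all 4 are higher is no independent evidence of a direction. In bulk RNA, more cells with a transcript and more of it per cell cannot be told apart.

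For unigenes outside the clusters, the number in the identifier went with the direction of the ratio, so the members' numbers are given. Both members outside the clusters have low numbers. Among the 4993 unigenes numbered up to 4999, 46.8% had a ratio above 0 and 1.38% were called higher at a log2 ratio of 2. Among the 4998 numbered from 5000 to 9999 the shares were 46.9% and 1.16%. Unigene4785 and Unigene8246 lie in these ranges, where the ratios were nearly balanced around 0. Any part of the number pattern in their own differences was not tested.

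**Figure D2:**
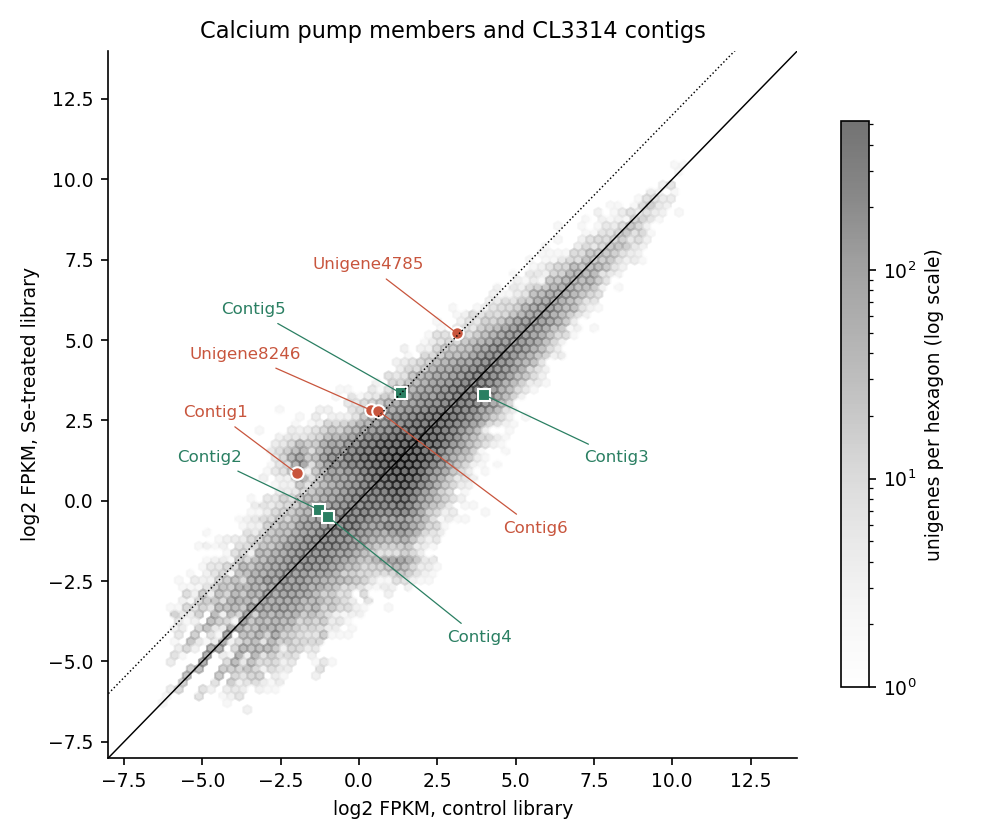
Level in the Se-treated library against level in the control (log2 FPKM), for the 80074 unigenes with fragments in both libraries (grey hexagons, darker where more unigenes lie), with the 4 members as circles and the other CL3314 contigs (named by contig) as squares. The solid line marks equal levels and the dotted line a log2 ratio of 2, along which Contig5 sits at 1.99, just below Unigene4785 at 2.09.

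Cluster CL3314 is where 2 of the members come from. The authors' assembly grouped similar sequences into clusters, and CL3314 holds 6 contigs, which may be transcript forms of 1 gene or of close copies. The mapping setting places a read that fits several contigs equally well on 1 of them at random, so the split of fragments among similar contigs is less certain than their sum. The 4 other contigs have no match in the table of names. Contig2 had 3737 nt and Contig4 had 3457 nt, which like Contig1 is long enough for a whole pump. Contig3 had 1093 nt and Contig5 had 610 nt.

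CL3314.Contig3 went the other way from the members of its cluster. It had 288 control and 180 Se-treated fragments, at levels of 15.8 FPKM (13.98 to 17.7) and 9.86 FPKM (8.47 to 11.4). Its log2 ratio was -0.68 (-0.95 to -0.40). It passed the FDR of 0.001 but not the ratio of 1 in size, so it was not called lower. In the control library it was the contig of the cluster with a higher level than Unigene4785, at 15.8 against 8.72 FPKM.

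CL3314.Contig5 lay just outside the threshold that chose the members. It had 26 control and 103 Se-treated fragments, a log2 ratio of 1.99 (1.36 to 2.67), against 2.09 for Unigene4785, the member just inside. Its level went from 2.55 FPKM (1.66 to 3.73) to 10.1 FPKM (8.25 to 12.3). It was the 1 of the 4 other contigs called higher at a log2 ratio of 1, beside the 5.5% of all unigenes called higher there. None of the 4 was called lower, against 4.65% of all unigenes.

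The 2 other long contigs differed less. Contig2 had 26 and 51 fragments, with a log2 ratio of 0.97 (0.27 to 1.72). Contig4 had 29 and 41 fragments, with a log2 ratio of 0.50 (-0.22 to 1.24), an interval that includes equal levels. Neither passed the FDR. Among the 3 contigs long enough for a whole pump, Contig1 had the fewest fragments in control callus and the most in Se-treated callus, though its control level overlapped those of Contig2 and Contig4 by their intervals. Contig1 is a member because its ratio passed 2, and Contig2 and Contig4 are not, so this contrast among the long contigs follows in part from the choice.

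**Figure D3:**
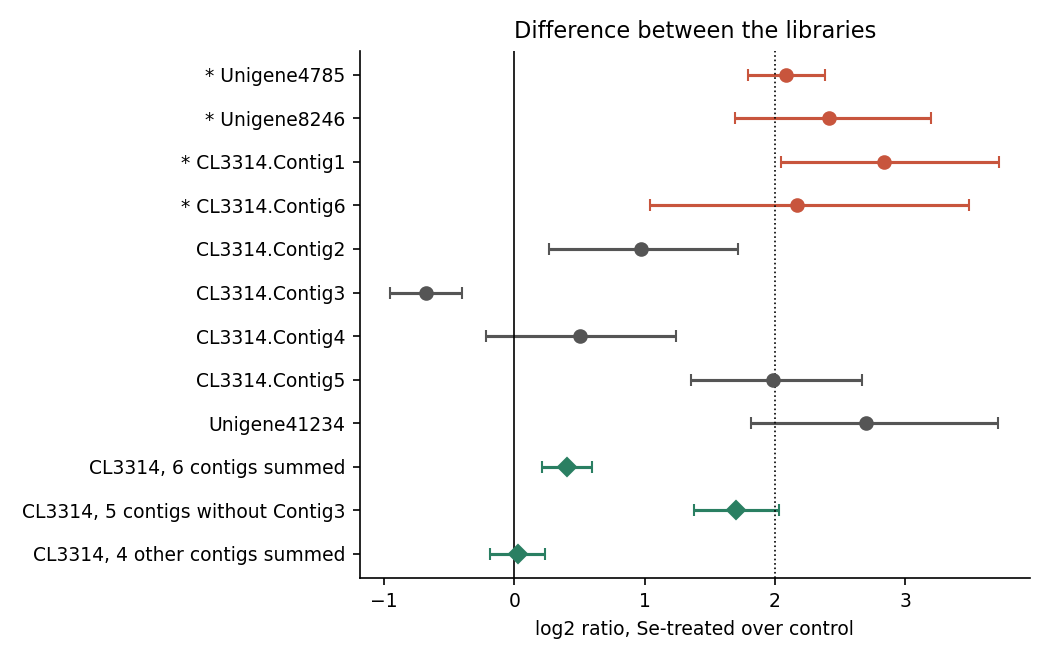
Log2 ratio of Se-treated over control for each unigene (circles) and for sums over contigs of CL3314 (diamonds), with exact binomial 95% counting intervals. Members carry an asterisk, the solid line marks equal levels and the dotted line the log2 ratio of 2 used to choose the members. The 6 contigs summed lie at 0.40 and the 5 without Contig3 at 1.70.

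Summed over its 6 contigs, the cluster was only slightly higher in the Se-treated library. It had 392 control and 518 Se-treated fragments, a log2 ratio of 0.40 (0.21 to 0.60), or 1.32-fold. Without its 2 members it had 369 and 375 fragments, with a log2 ratio of 0.03 (-0.19 to 0.24). The outcome of the sum turns on Contig3. Without Contig3 the other 5 contigs had 104 and 338 fragments, with a log2 ratio of 1.70 (1.38 to 2.03). The 3 long contigs alone had 70 and 199 fragments, with a log2 ratio of 1.51 (1.11 to 1.92). The 3 short contigs, where the lower count of Contig3 and the higher counts of Contig5 and Contig6 offset each other, had 322 and 319.

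The share of the cluster's fragments that each contig took therefore differed between the libraries. Contig3 held 73.5% of them in the control (exact binomial interval 68.8 to 77.8%) and 34.7% in the Se-treated library (30.6 to 39.0%). Contig1 went from 3.83% (2.16 to 6.23%) to 20.7% (17.2 to 24.4%). Contig5 went from 6.63% (4.38 to 9.57%) to 19.9% (16.5 to 23.6%). The shares of Contig6 were 2.04% and 6.95%, while those of Contig2 (6.63% and 9.85%) and Contig4 (7.40% and 7.92%) had overlapping intervals. By level per length, Contig3 led the cluster in the control, whereas with selenate Contig5 (10.1 FPKM) and Contig3 (9.86 FPKM) could not be told apart.

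**Figure D4:**
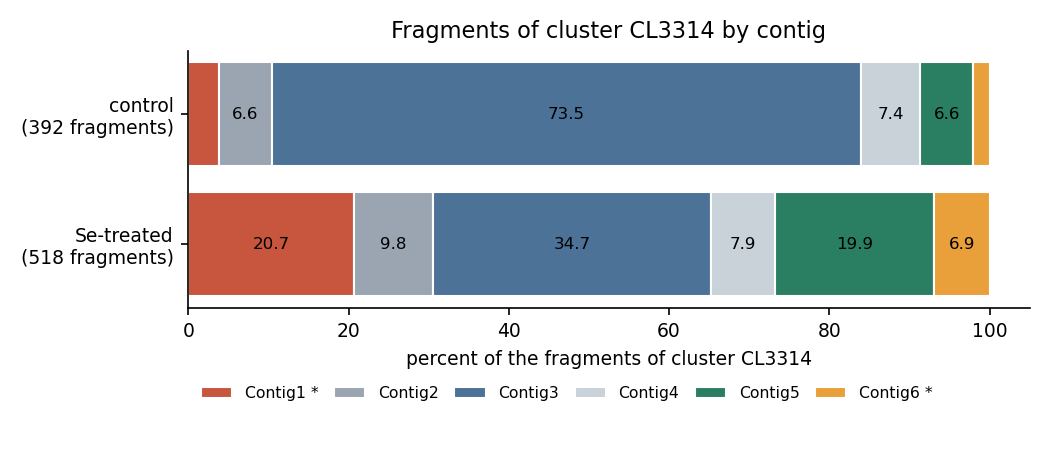
Share of the fragments of cluster CL3314 taken by each of its 6 contigs, in percent, in the control library (392 fragments) and the Se-treated library (518 fragments), with members marked by an asterisk. Contig3 goes from 73.5% to 34.7%, and Contig1 from 3.83% to 20.7%.

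The 4 contigs that are no members can be described on their own. Their ratios stayed under the threshold of 2, so they are not free of the choice either. Contig3 held 78.0% of their 369 fragments in the control (73.5 to 82.2%) and 48.0% of their 375 in the Se-treated library (42.8 to 53.2%). Contig5 went from 7.05% (4.65 to 10.2%) to 27.5% (23.01 to 32.3%). The near-equal totals of 369 and 375 fragments thus hide opposite differences in Contig3 and Contig5.

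Over the whole cluster, 38.7% of the fragments would have to change contig to turn the control split into the Se-treated one. Among the 3392 clusters of at least 2 contigs and 200 fragments in each library the median was 6.66%, and 99.6% of them lay below CL3314. Among the 127 of them with 6 contigs, as CL3314 has, the median was 11.8% and 99.2% lay below CL3314. A cluster with a contig called higher at a log2 ratio of 2 moves more by construction. Among the 149 such clusters the median was 16.1%, and 94.0% lay below CL3314. CL3314 was taken up because 2 of its contigs differed, so its place among these clusters is a description.

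One further unigene in the table of names matched a calcium pump and is no member. Unigene41234 matched a calcium ATPase of Trifolium repens (white clover). It had 627 nt, with 12 control and 78 Se-treated fragments and a log2 ratio of 2.70 (1.82 to 3.72). Its high number puts it in a range from 40000 to 44999 where 91.8% of 4970 unigenes had a ratio above 0, and the part of this in its difference was not tested. All 5 unigenes named as calcium pumps there were higher in the Se-treated library, with log2 ratios from 2.09 to 2.84, and the table names none that was lower. Of all 972 unigenes named there, 663 (68.2%) were higher and 309 lower.

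The same table names 5 protein kinases that read calcium signals, namely 4 calcium-dependent protein kinases and 1 CBL-interacting protein kinase. All 5 were higher in the Se-treated library, with log2 ratios from 2.01 to 2.86 on 27 to 453 fragments, beside the 68.2% of all named unigenes. The CBL-interacting protein kinase (Unigene42127) lies in the same high number range as Unigene41234, with 91.8% of ratios above 0. Unigene39403 lies in the range from 35000 to 39999, where 42.4% were above 0 but 4.11% were called higher at a log2 ratio of 2. Unigene31761 lies in the range from 30000 to 34999, with 14.6% above 0. Unigene19960 and Unigene23170 lie in ranges with 46.6% and 45.5%. The part of the number pattern in these differences was not tested. Calcium uptake protein 1 of mitochondria, which gates calcium entry into that organelle, was named for 2 contigs of cluster CL2490, and these went opposite ways. CL2490.Contig2 had 15 and 73 fragments (log2 ratio 2.29, 1.47 to 3.19), and CL2490.Contig7 had 45 and 10 (-2.17, -3.32 to -1.16). The 9 contigs of that cluster summed to 125 and 194 fragments, a log2 ratio of 0.64 (0.30 to 0.97). As in CL3314, the contig of CL2490 with most fragments in the control was lower in the Se-treated library, while the sum was higher. CL2490.Contig7 is named in the table only because its log2 ratio passed 2 in size, and CL3314.Contig3 was not called lower. No shared pattern can be read from this. All these lists were chosen on these libraries, so their counts are not independent evidence of a direction.

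With 2 libraries a pattern is only a pair of levels, and likeness to a member was taken as the distance between log2 FPKM values over both libraries, among the 923 matched unigenes with fragments in each. Nearest to CL3314.Contig6 was a methylcrotonoyl-CoA carboxylase subunit of leucine breakdown (CL10187.Contig2, 1.54 and 6.90 FPKM). Nearest to Unigene8246 was a phosphoribosylformylglycinamidine synthase of purine synthesis (Unigene40978, 1.36 and 6.99 FPKM). Nearest to CL3314.Contig1 was subunit C of the translation initiation factor eIF3 (CL3680.Contig3, 0.237 and 1.70 FPKM). Nearest to Unigene4785 was Unigene40422 (8.79 and 36.0 FPKM), whose match is a rice protein known only by a locus code. The distances ran from 0.0063 to 0.12 on the log2 scale, well within the counting error of the members. All 923 had already passed a log2 ratio of 2 in size, so a neighbour with a ratio like the members' was given by the choice. Unigene40978 and Unigene40422 lie in the number range from 40000 to 44999, where 91.8% of unigenes had a ratio above 0.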

How the data were processed

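RNA of control and Se-treated callus was sequenced, as 1 library each. The authors removed low-quality reads, assembled unigenes with Trinity (release 20130225), TGICL (2.1) and Phrap (23.0), and placed reads on the unigenes with SOAP (2.21), which reports 1 hit at random for reads with several. The deposited fragment counts are whole numbers, not normalized, and sum to the totals in the header. The deposited FPKM values of 1 or more lack their decimal mark: all 59159 such control and 58553 such Se-treated values are 10000 times what fragments and length give (within 0.6). FPKM was therefore computed again. The deposited columns that are on other scales, the P-value and FDR of the authors' own comparison, were not used, and 2439 of these P-values exceed 1. The length column, another deposited value, gave the codon limits. Median counts were 22 and 21 fragments per unigene.

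Ratios are log2 of Se-treated over control FPKM, with 0.001 in place of an FPKM of 0. Calls used an Audic-Claverie test and Benjamini-Hochberg adjustment over all 82566 unigenes, at the study's FDR of 0.001. Intervals are exact at 95%. Alternatives were a pseudocount, recentring, TMM (edgeR 4.0.16), a filter of 10 fragments, an exact binomial test, an assumed coefficient of variation (edgeR's exact test) and other sums over contigs. The software was Python 3.11.15 with scipy 1.17.1, numpy 2.4.6, matplotlib 3.10.9 and pandas 2.3.3. The text names the members, the other CL3314 contigs, the pumps and calcium proteins of the study's table of matches and the nearest matched unigene of each member. The members and lists were chosen with earlier results of these data known. Sequences of the unigenes were not used here.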

Additional observations from a re-analysis of the deposited data

How the results depend on the processing

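All 4 members stayed higher in the Se-treated library under every scaling and pseudocount tried. Their choice at a log2 ratio of at least 2 fixed this in advance. An equal pseudocount on both sides cannot reverse a direction, and the scalings moved the ratios little. It is therefore no separate support for their differences. With 1 FPKM added to both libraries the log2 ratio of CL3314.Contig1 was 1.16 instead of 2.84, since the 1 FPKM exceeds its control level, and it was the member whose ratio left its counting interval. Recentring (by 0.03) and TMM (0.08 on the log2 scale) moved the ratios by less than 0.1. The sums over CL3314 depend on which contigs are summed. Over all contigs the log2 ratio was 0.40, but 1.70 without Contig3 and 1.51 over contigs longer than 3000 nt. Over the contigs that are no members it was 0.03, but 1.27 without Contig3 and 0.74 over the long contigs. Both choices were made after seeing the data. The count of unigenes called higher at a log2 ratio of 2 was 1311 and became 402 with 1 FPKM added, and that of lower ones was 912 and became 249. An assumed spread between cultures, put into edgeR's exact test as a coefficient of variation, cut the calls. At 0.2, still 419 unigenes were called higher and 223 lower at a ratio of 1 (4539 and 3838 without it), and 406 and 221 at 2, and CL3314.Contig5 lost its call, leaving 0 of the other contigs. At 0.4 this test left 0 calls at both ratios and in both directions, and 3834 unigenes (4.64%) had an unadjusted p under 0.05. That share cannot be read against 5%. An exact test on low counts gives fewer than that with no differences, and the spread of 0.4 was assumed, not estimated. Of all 76 alternative values, 59 stayed within the counting interval of the reported value or, for counts, within 1.5 times of it. Some of these had little or no room to differ, so the tally is no measure of robustness. Leaving out CL3314 contigs under 10 fragments removed none, as the smallest had 44. The count of other CL3314 contigs called lower stayed at 0 throughout. No paired analysis was possible because each condition has 1 library. Depth limits CL3314.Contig6 most, whose 8 control fragments leave a fold from 2.06 to 11.2 by counting error alone. The spread between cultures and the random placing of shared reads are not in that range.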

Other observations

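Other P-type ATPases than calcium pumps also stood in the table of matches, on both sides. Pumps that flip phospholipids between the faces of a membrane were named for 3 unigenes. Of these, an Aminophospholipid ATPase (Unigene19738) had 143 control and 670 Se-treated fragments, a log2 ratio of 2.23 (1.97 to 2.50), and a phospholipid-transporting ATPase 3-like unigene (Unigene5473) had 20 and 125 (2.65, 1.96 to 3.41). A flippase family protein (Unigene33240) had 67 and 10 (-2.74, -3.87 to -1.77), and it lies in the number range from 30000 to 34999, where 14.6% of unigenes had a ratio above 0.

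A cadmium/zinc-transporting ATPase HMA1-like unigene (Unigene2458), a heavy metal pump of the chloroplast, had 23 and 141 fragments (2.62, 1.98 to 3.32). The proton pumps, which energize the plasma membrane, were sparsely counted. An autoinhibited H+ ATPase (CL7516.Contig2) had 4 and 23 fragments, a log2 ratio of 2.53, while its cluster of 2 contigs had 43 and 45 and a log2 ratio of 0.07 (-0.57 to 0.71). A plasma membrane H+-ATPase (Unigene40304) had 9 and 39 fragments (2.12, 1.05 to 3.35), and it lies in the number range from 40000 to 44999, where 91.8% of unigenes had a ratio above 0. These unigenes were chosen on the same difference, so their values are a description with no test.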
